A study of Daphnia magna with 15 samples.

Results

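Animals of *Daphnia magna* fed *Cryptomonas* (CRY), an alga that holds EPA by nature, were compared with animals fed the green alga *Acutodesmus obliquus* to which EPA was added (GA +EPA), across all genes of the reference annotation. The members were the 3 libraries labelled CRY and the 3 labelled GA +EPA, 6 of the 15 RNA-seq libraries of the series. The remaining 9 libraries, 3 each of CY +EPA (the cyanobacterium *Synechococcus elongatus* with EPA), GA (the green alga without EPA) and CY (the cyanobacterium without EPA), are used only to place the 2 groups. Per the study's methods both cyanobacterial diets also received cholesterol and the fatty acid ALA, and the sequenced GA animals received liposomes without EPA, which the label GA does not say. Comparisons of CRY with CY +EPA and GA therefore carry these additions as well. Every library was made from whole females of clone P132.85, raised at 15 °C on the given food from birth until the first clutch of parthenogenetic eggs lay in the brood pouch, so that RNA of mother and eggs was read together. The stock had been kept on *A. obliquus* before the experiment. EPA was given to the GA +EPA animals in liposomes. Whether the CRY animals received liposomes is not given in the sources used here, and CRY is not described among the diets of the methods. Food organism, liposomes and source of EPA therefore cannot be told apart in this comparison. The size of a pool is given as 3 animals in one label and as 5 in another.

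EPA (eicosapentaenoic acid) is a long-chain polyunsaturated fatty acid that daphnids obtain mostly from their algal food. It is built into membrane phospholipids, allocated to eggs, and is a precursor of eicosanoids, the lipid mediators made by cyclooxygenases and related enzymes. Cryptophytes are regarded as high-quality food for *Daphnia*, while green algae hold shorter polyunsaturated fatty acids but no EPA, and the 2 foods differ also in sterols, pigments and cell wall. Gut proteases of the trypsin and chymotrypsin type, lipases and esterases digest the food, vitellogenins carry lipid into the eggs, and the extracellular haemoglobins of *Daphnia* carry oxygen.

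The expected counts summed to between 18218136 and 19749270 per CRY library and between 18938122 and 20060094 per GA +EPA library, and the mean totals differed by -1.93% (two-sided exact permutation test, p = 0.5, smallest possible p = 0.1). Not all libraries sat closest to their own group. GA +EPA replicate 1 correlated with the 2 other GA +EPA libraries at r of 0.9675 and 0.9763 (log2 CPM across genes), against 0.9916 between those 2, and its mean r to the CY +EPA libraries was 0.9764. The library labelled CY replicate 1 had a mean r of 0.9879 to the CRY libraries and of 0.9698 to its own group, while the CRY libraries correlated among themselves at 0.9829 to 0.9929. The labels do not say that the pools came from separate cultures, so p-values measure the spread between pools of 1 clone, which may be partly technical. Levels are given as CPM, the expected counts divided by the library total with scaling factors over all 15 libraries. A gene was called when the edgeR quasi-likelihood test, on the 6 libraries, gave a Benjamini-Hochberg adjusted p of at most 0.01.

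Of 14303 genes tested, 224 were called (1.57%). In CRY animals 139 genes (0.972%) were higher and 85 (0.594%) were lower, and 152 of the called genes differed by at least 1 on the log2 scale, 93 upward and 59 downward. On the log2 scale the median difference was 1.23 among the called genes higher in CRY (0.52 to 8.73) and -1.19 among those lower (-6.61 to -0.54), as shown in the plot of all tested genes. The 3 CRY libraries lay outside the range of the 3 GA +EPA libraries for each of the 224 genes, beside 36.7% of all tested genes. An unadjusted p of at most 0.05 was reached by 4362 genes, against 715 that a uniform distribution of p would give, and an adjusted p of at most 0.05 by 1567. Counts of called genes in the gene lists below are to be read beside the 1.57% of all genes. Counts at an unadjusted p under 0.05 are to be read beside the 4362 of 14303. The number of calls at 0.01 depended on single libraries: 833 genes were called without GA +EPA replicate 1 and 73 without GA +EPA replicate 3, but 13 without GA +EPA replicate 2, 6 without CRY replicate 1, 28 without CRY replicate 2 and 16 without CRY replicate 3. All 224 genes kept their direction in each of these 6 fits. Because their groups do not overlap, leaving out 1 library could hardly change a direction, so this is no added evidence. Of the called genes 62.1% were higher in CRY, whereas the share was 51.8% with DESeq2, 48.1% with all 15 libraries in one fit and 41.4% with limma on log2(FPKM + 1), where the median of all genes moved to -0.136.

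**Figure D1:**
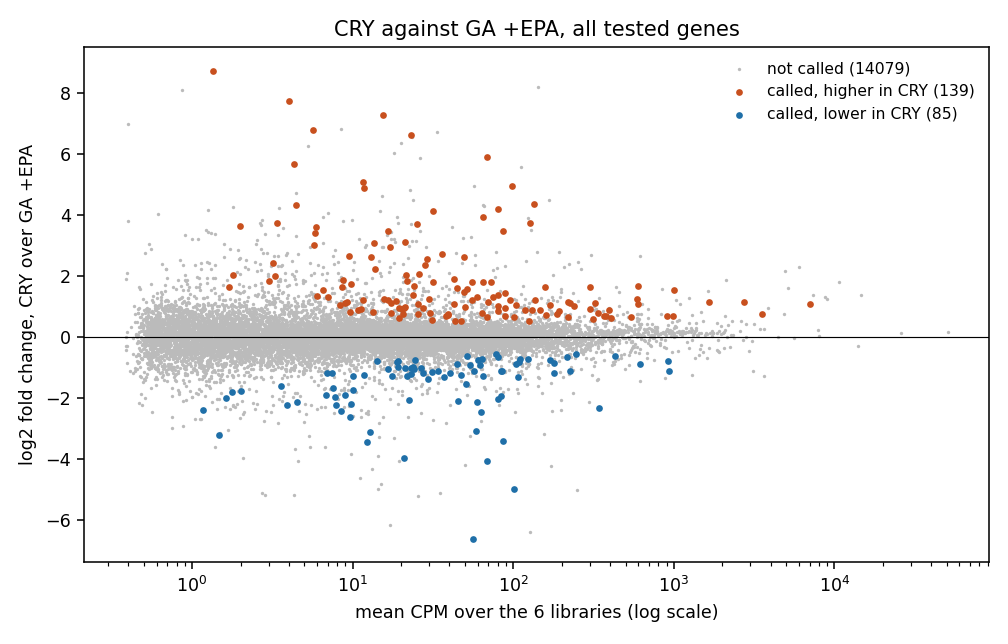
Log2 fold change of CRY over GA +EPA (vertical axis) against the mean CPM over the 6 libraries (horizontal log axis) for 14303 tested genes. Orange points are the 139 called genes higher in CRY, blue points the 85 called genes lower in CRY and grey points all others. Called genes appear at low and at high levels in both directions, with folds closer to 0 at high levels.

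Opsins are the light-absorbing receptor proteins of photoreceptor cells, and all called ones were lower in CRY animals. Of 25 opsin genes in the annotation 18 could be tested, and 8 of these (44.4%, against 0.594% of all genes called lower) were lower in CRY animals and 0 were higher. The most abundant one, the long-wavelength-like opsin KZS10067.1 (scaffold LRGB01001899.1, 78125 to 79268, minus strand), reached 422.5, 410.8 and 452.4 CPM in CRY, against 823.6, 757.4 and 825.2 CPM in GA +EPA. All 3 CRY libraries lay far below the lowest GA +EPA library (log2 fold change -0.87 ± 0.08 SE, adjusted p = 0.00549). KZS05019.1, a further long-wavelength-like opsin, showed 143.7, 140.3 and 144.9 CPM in CRY, against 312.1, 300.4 and 320.6 CPM in GA +EPA (log2 fold change -1.09 ± 0.07, adjusted p = 0.00144).

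The strongest difference in this family belonged to KZS10165.1 (LRGB01001877.1, 196535 to 198168, plus strand), a weakly expressed long-wavelength-like opsin with 2.404, 2.518 and 2.952 CPM in CRY, against 15.7, 12.5 and 14.9 CPM in GA +EPA (log2 fold change -2.42 ± 0.15, adjusted p = 0.00143). Other opsins on the same scaffold, KZS10162.1 (-1.18 ± 0.08), KZS10166.1 (-0.71 ± 0.08, with shared reads in all 6 libraries) and KZS10168.1 (-1.01 ± 0.10), were also lower in CRY. KZS10163.1, which lies among them, had a log2 fold change of -0.66 and was not called (adjusted p = 0.0956). Outside this cluster, the opsin Rh1 gene KZS05829.1 (-1.12 ± 0.10) and the blue wavelength opsin KZS21495.1 (-1.04 ± 0.12) completed the 8. The UV wavelength opsin KZS12137.1 was not called, at 0.874, 0.682 and 0.454 CPM in CRY, against 0.673, 1.26 and 1.37 CPM in GA +EPA, with overlapping groups. Opsin-5 (KZS13848.1) and arthropsin4 (KZS13724.1) were the 2 tested opsins with a positive log2 fold change, of 0.26 and 0.40, and neither was called.

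Over all opsin genes the summed level was 858.8, 851.7 and 909.4 CPM in CRY, against 1790, 1617 and 1765 CPM in GA +EPA. In whole animals, fewer photoreceptor cells and less opsin RNA per cell cannot be told apart. Of 38 tested genes of other phototransduction proteins, a list made after the values were seen, 1 was called: beta-arrestin-1 (KZS10778.1), of the protein family that switches off activated receptors, at 71.5, 73.7 and 72.7 CPM in CRY, against 140.6, 129.7 and 135.8 CPM in GA +EPA (log2 fold change -0.87 ± 0.06, adjusted p = 0.00199). In this list 5 genes were called lower without GA +EPA replicate 1, 1 without GA +EPA replicate 3 and 0 without any of the other 4 libraries. The median log2 fold change was -0.76 over the tested opsins and 0.01 over all tested genes. Without GA +EPA replicate 1 there were again 8 opsins called lower, but 3 without GA +EPA replicate 3, 1 without GA +EPA replicate 2 or CRY replicate 3 and 0 without CRY replicate 1 or 2, and the median stayed between -0.92 and -0.75 in these fits. Reads were shared with other genes for 9 of the 25 opsin genes.

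**Figure D2:**
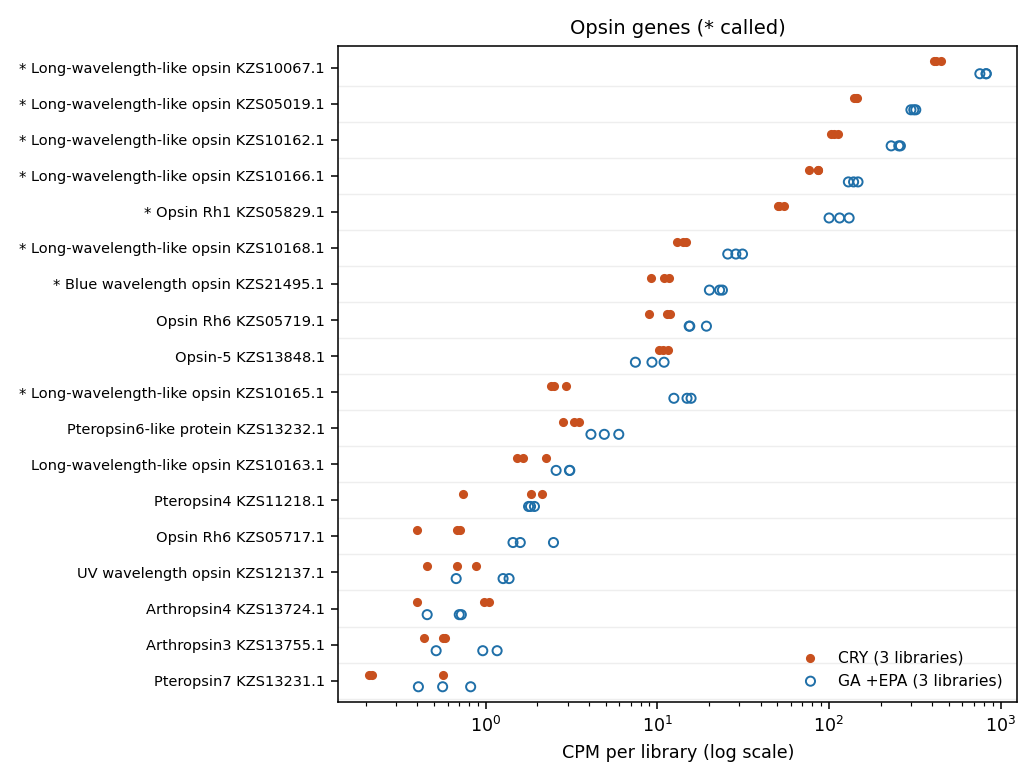
CPM in each library (horizontal log axis) of the 18 tested opsin genes, ordered by mean level, with the 3 CRY libraries as filled orange points and the 3 GA +EPA libraries as open blue circles below them. An asterisk marks the 8 called genes, all of which have the 3 CRY points left of the 3 GA +EPA circles.

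Serine proteases, a family that includes the main digestive enzymes of the *Daphnia* gut, held several of the genes with the largest positive differences. Their product names do not say which of them act in digestion. In the list of 49 tested trypsins, chymotrypsins and other serine proteases, 7 were higher in CRY animals and 1 was lower (16.3% called, against 1.57% of all genes). Outside the list, KZR98009.1, annotated as transmembrane protease serine 9, had 9.726, 7.397 and 6.869 CPM in CRY, against 0.0962, 0 and 0 CPM in GA +EPA, which is 440 counts against 2 and a ratio of 248 (95% exact interval of the count ratio 68.2 to 2050, counting error only). The trypsin gene KZS10600.1 showed 5.08, 5.30 and 14.9 CPM in CRY, against 0.192, 0.0936 and 0.203 CPM in GA +EPA (log2 fold change 5.68 ± 0.65, adjusted p = 0.0081). KZR98511.1, a clip-domain serine protease-like gene, reached 150.5, 184.8 and 120.9 CPM in CRY, against 8.90, 6.36 and 10.1 CPM in GA +EPA (4.20 ± 0.23, adjusted p = 0.00141). None of these 3 genes had overlapping groups, which holds for all 224 called genes. Each was many times higher in every CRY library than in any GA +EPA library.

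The other called members were 2 genes of trypsin-7 type on one scaffold, KZS14743.1 (1.15 ± 0.13) and KZS14749.1 (2.01 ± 0.24), the trypsin-7 gene KZS06769.1 (1.58 ± 0.18) and 2 serine protease 42 genes, KZS07331.1 (2.23 ± 0.28) and KZS15399.1 (1.04 ± 0.13). The protease lower in CRY was KZS10860.1, serine proteinase stubble, which is known from *Drosophila* for epithelial development and not for digestion, with 45.6, 41.9 and 46.5 CPM in CRY, against 86.0, 72.0 and 71.8 CPM in GA +EPA (-0.75 ± 0.09, adjusted p = 0.00829). Among uncharacterised genes whose artNOG description is a trypsin-like domain, a list made after the values were seen, 6 of 25 tested were higher in CRY and 0 lower (24% called, against 1.57% of all genes). KZS08918.1 and KZS08919.1 of this list are neighbours (LRGB01002140.1, 11553 to 23076). KZS08918.1 had 15.4, 10.4 and 7.78 CPM in CRY, against 0.0481, 0.140 and 0.101 CPM in GA +EPA. KZS08919.1 showed 62.5, 64.6 and 59.4 CPM in CRY, against 10.1, 8.28 and 10.4 CPM in GA +EPA (2.73 ± 0.10, adjusted p = 3.29e-04). KZR99769.1 was the most abundant of the 6, with 247.0, 314.7 and 206.7 CPM in CRY, against 12.6, 9.26 and 16.4 CPM in GA +EPA. Part of the reads of KZS08918.1, KZS08919.1, KZR99769.1, KZR97243.1 and KZS01355.1 was shared with other genes, so these 5 loci may not be independent measurements. Of this list 9 were called without GA +EPA replicate 1 (8 higher and 1 lower), 5 without GA +EPA replicate 3 or CRY replicate 2, 4 without CRY replicate 3, 2 without GA +EPA replicate 2 and 1 without CRY replicate 1.

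These differences between single proteases did not extend to their sum. All listed serine proteases together came to 15110, 13310 and 14260 CPM in CRY, against 7279, 15610 and 19560 CPM in GA +EPA, with overlapping groups, and the median log2 fold change of 0.35 became 0.17 without GA +EPA replicate 1, the library with the lowest sum. Without that replicate 8 listed proteases were called higher and 6 lower, while 0 were called without CRY replicate 1, 1 without CRY replicate 2 or GA +EPA replicate 3, and 2 without CRY replicate 3 or GA +EPA replicate 2. Among 84 other digestive peptidases 1 was called, carboxypeptidase A4 (KZS15407.1), at 18.4, 28.8 and 25.8 CPM in CRY, against 4.76, 2.25 and 1.88 CPM in GA +EPA (3.08 ± 0.36, adjusted p = 0.00847). This list had 15 calls, 5 higher and 10 lower, without GA +EPA replicate 1 and 0 without any of the other 5 libraries. Of 52 glycoside hydrolases 0 were called by edgeR, while DESeq2 called 5, all higher in CRY. An unadjusted p under 0.05 was reached by 10 (9 higher and 1 lower), beside 4362 of all 14303 tested genes. However, edgeR called 3 glycoside hydrolases higher and 3 lower without GA +EPA replicate 1, where their median log2 fold change was 0.02, against 0.21 with all 6 libraries. It called 1 without GA +EPA replicate 3 and 0 without any of the other 4 libraries.

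Carboxylic ester hydrolases, which cleave esters of fatty acids, sterols and other alcohols, held one of the 3 genes with the smallest adjusted p. KZS04989.1 (LRGB01003024.1, 390912 to 393589, plus strand) had 55.1, 40.7 and 41.5 CPM in CRY, against 0.577, 0.468 and 0.355 CPM in GA +EPA, a 98.6-fold difference (log2 fold change 6.62 ± 0.22, adjusted p = 3.29e-04). It was among the genes that were called without each of the 6 libraries in turn. On another scaffold 3 adjacent genes rose in CRY as well (LRGB01002384.1, 321462 to 331680). KZS07851.1 reached 173.7, 132.5 and 170.0 CPM in CRY, against 7.60, 13.0 and 22.8 CPM in GA +EPA (3.48 ± 0.41, adjusted p = 0.00869). KZS07852.1 lay at 6.83, 4.77 and 7.15 CPM in CRY, against 0.337, 0.374 and 0.710 CPM in GA +EPA (3.74 ± 0.34). KZS07853.1 was measured at 53.06, 45.64 and 50.01 CPM in CRY, against 5.96, 9.50 and 10.3 CPM in GA +EPA (2.55 ± 0.23, adjusted p = 0.00503).

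Within the same family, liver carboxylesterase 1 (KZS20997.1) was lower in CRY, with 2.90, 2.73 and 4.71 CPM there, against 18.7, 16.8 and 12.9 CPM in GA +EPA (-2.19 ± 0.25, adjusted p = 0.00811). In all, 4 of 14 tested esterase genes were higher in CRY and 1 was lower (35.7% called, against 1.57% of all genes). The list was made after the values were seen, and its median log2 fold change was -0.11. This list had 7 calls without GA +EPA replicate 1, 4 without GA +EPA replicate 3 and 1, which was KZS04989.1, without any of the other 4 libraries. Lipases and phospholipases gave 1 call in each direction among 55 tested genes. KZS07195.1 is a triacylglycerol lipase by product name and has a cadherin domain as its artNOG description. It had 136.9, 107.9 and 117.2 CPM in CRY, against 3.85, 8.42 and 11.9 CPM in GA +EPA (3.93 ± 0.41, adjusted p = 0.00771). The opposite was found for KZS08312.1, a phospholipase A2, the class of enzymes that frees fatty acids such as EPA and arachidonic acid from membrane lipids, at 2.51, 2.83 and 4.09 CPM in CRY, against 13.9, 10.8 and 12.6 CPM in GA +EPA (-1.95 ± 0.21, adjusted p = 0.00773). It was also the 1 call among 22 tested genes of the eicosanoid pathway, of which 1 was called higher and 5 lower without GA +EPA replicate 1 and 0 without any of the other 5 libraries. Without GA +EPA replicate 1 there were 9 calls among the lipases and phospholipases (6 higher and 3 lower), without GA +EPA replicate 3 there was 1, and without any of the other 4 libraries there were 0.

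Globin genes with very different levels were higher in CRY animals. Of 15 tested genes with a globin product name or artNOG description, 5 were called, all higher, while 0.972% of all tested genes were called higher. The 5 were cytoglobin-2 (KZS07601.1), from the list of product names, and 4 uncharacterised genes, from a list made after the values were seen. KZS07513.1 and KZS07514.1 are neighbours (LRGB01002451.1, 234211 to 236884). KZS07514.1 had 138.0, 111.8 and 156.3 CPM in CRY, against 3.17, 1.92 and 1.93 CPM in GA +EPA, a 59.2-fold difference (log2 fold change 5.89 ± 0.24, adjusted p = 3.56e-04). KZS07513.1 showed 196.8, 158.2 and 214.2 CPM in CRY, against 6.54, 4.96 and 7.45 CPM in GA +EPA, 30.7-fold (4.94 ± 0.20, adjusted p = 3.56e-04). Neither gene shared reads with another, and both were called without each library in turn, whereas the 4 calls among the uncharacterised globin genes became 5 without GA +EPA replicate 1 and 2 without any of the other 5 libraries.

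The most abundant globin gene, KZS12429.1 (LRGB01001361.1, 1141938 to 1143478, minus strand), took 9170, 9694 and 9926 CPM in CRY, against 4962, 4471 and 4318 CPM in GA +EPA (1.10 ± 0.10, adjusted p = 0.00515). Part of its reads was shared with other genes in all 6 libraries. Its neighbour KZS12428.1 (0.96, adjusted p = 0.0139) and the haemoglobins KZS12426.1 (0.82, adjusted p = 0.0365) and KZS12427.1 (1.51, adjusted p = 0.044) of the same scaffold missed the threshold. Cytoglobin-2 had 72.5, 58.3 and 70.2 CPM in CRY, against 22.6, 21.7 and 22.8 CPM in GA +EPA (1.62 ± 0.10, adjusted p = 0.00144). The summed level of the 15 globin genes was 16050, 16430 and 18650 CPM in CRY, against 8553, 8571 and 8147 CPM in GA +EPA, a ratio of the means of 2.02, or 2.04 without GA +EPA replicate 1. The 3 neuroglobin genes and the haemoglobin KZS17562.1 were not called and lay between -0.70 and 0.11 on the log2 scale.

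**Figure D3:**
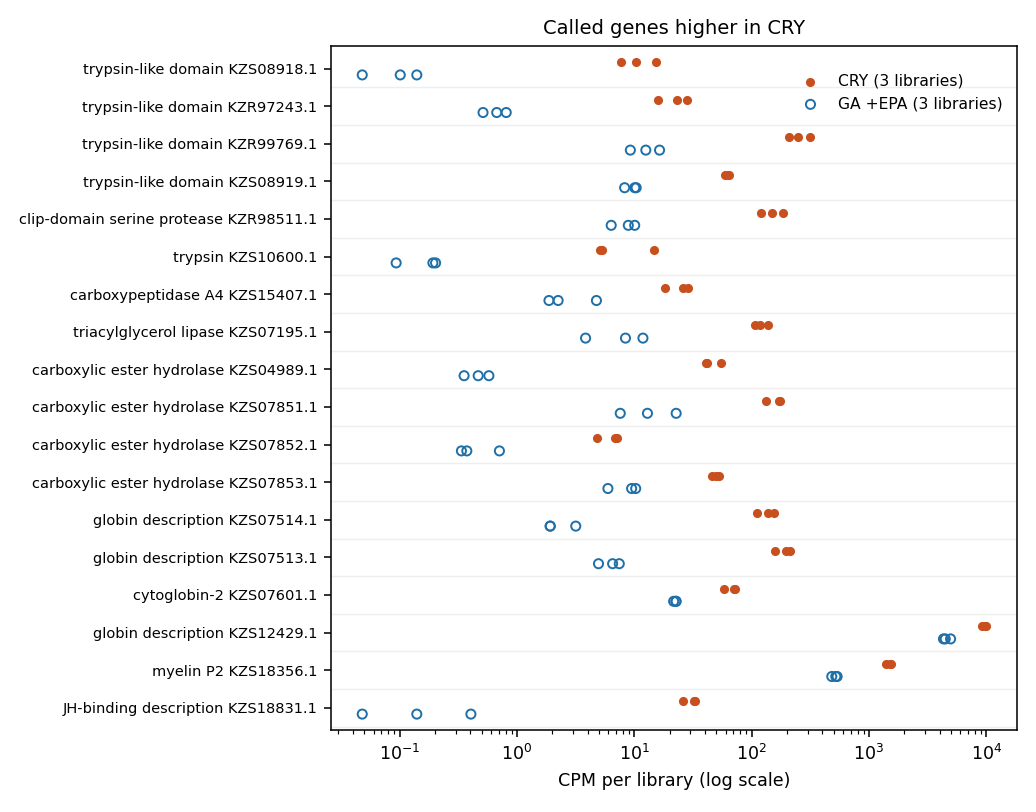
CPM in each library (horizontal log axis) of 18 called genes that were higher in CRY, by family, with the 3 CRY libraries as filled orange points and the 3 GA +EPA libraries as open blue circles below them. The groups do not overlap for any of the 18 genes, as for all 224 called genes. Levels lie between under 1 CPM (the GA +EPA libraries of KZS08918.1) and 9926 CPM (a CRY library of KZS12429.1).

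Yolk protein genes carried a large share of the reads and had higher levels in every CRY library than in any GA +EPA library, while 1 of them passed the test. All 13 gene models named vitellogenin fused with superoxide dismutase, the main yolk protein of *Daphnia*, had positive log2 fold changes of 1.24 to 2.68 (median 1.82), with adjusted p between 0.00931 and 0.031. Their groups did not overlap, as was so in this direction for 18% of all tested genes. Their summed level was 95940, 109900 and 78550 CPM in CRY, against 45490, 25760 and 23690 CPM in GA +EPA, a ratio of the means of 2.99. At the threshold of 0.01 only KZS01587.1 was called, with 1017, 913.2 and 795.4 CPM in CRY, against 390.3, 258.4 and 224.2 CPM in GA +EPA (1.68 ± 0.21, adjusted p = 0.00931). GA +EPA replicate 1 had the highest yolk sum of its group: without it the ratio was 3.83 and 13 models were called higher, while 0 were called without any one of the other 5 libraries. Of the 13 models 9 begin at the first base of their scaffold and 8 shared reads with other genes, so they may be pieces of fewer genes.

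The 4 tested vitellogenin receptor genes, whose products take yolk protein into the oocyte, had log2 fold changes between -0.61 and -0.22, with adjusted p of 0.087 or more. Among 35 tested uncharacterised genes with a vitellogenin or lipoprotein description, a list made after the values were seen, 3 were called higher and 2 lower (14.3%, against 1.57% of all genes). These numbers were 5 and 3 without GA +EPA replicate 1, and 0 without any of the other 5 libraries. KZS10194.1 was at 115.7, 118.7 and 104.2 CPM in CRY, against 45.6, 26.4 and 27.9 CPM in GA +EPA (1.80 ± 0.20, adjusted p = 0.00807). KZS03323.1, with a lipoprotein amino-terminal region, was at 100.5, 76.8 and 156.5 CPM in CRY, against 635.5, 590.9 and 484.8 CPM in GA +EPA (-2.32 ± 0.27, adjusted p = 0.00852). The related KZS01095.1 was lower too (-2.12 ± 0.26), and both shared reads with other genes in all 6 libraries. Germ line and early embryo genes summed to 935.1, 888.4 and 955.6 CPM in CRY, against 1210, 1083 and 960.3 CPM in GA +EPA. Of these 12 genes edgeR called 0, an unadjusted p under 0.05 was reached by 4 that were all lower in CRY, and DESeq2 called 3. Whether the share of egg RNA plays a part in the yolk difference was not tested.

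Some enzymes of glycolysis and gluconeogenesis, the breakdown and the synthesis of glucose, were higher in CRY animals. Of 20 tested genes in a list made after the values were seen, 4 were called higher and 1 lower in CRY (25%, against 1.57% of all genes). A positive log2 fold change was found for 15 (median 0.40, against 0.01 for all genes). Pyruvate carboxylase (KZS10155.1), which makes oxaloacetate at the entry to gluconeogenesis, had 526.9, 466.2 and 538.8 CPM in CRY, against 308.3, 275.3 and 264.1 CPM in GA +EPA (0.89 ± 0.09, adjusted p = 0.00771). Fructose-1,6-bisphosphatase 1 (KZS21750.1), phosphoglycerate kinase (KZS20002.1) and glucose-6-phosphate isomerase (KZS17552.1) were higher by 0.71 ± 0.09, 0.68 ± 0.08 and 0.62 ± 0.07 on the log2 scale. The artNOG descriptions of KZS10155.1 (RAB) and KZS21750.1 (dienelactone hydrolase family) do not match their product names. Phosphoenolpyruvate carboxykinase (KZS05421.1) missed the threshold at 780.5, 670.1 and 793.1 CPM in CRY, against 437.5, 460.8 and 450.8 CPM in GA +EPA (0.76, adjusted p = 0.0102).

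Glucose-6-phosphatase, which releases free glucose, behaved differently from gene to gene. KZS17554.1 (LRGB01000626.1, 597918 to 599349, plus strand) was lower in CRY, at 32.0, 26.1 and 35.1 CPM, against 108.3, 152.6 and 126.4 CPM in GA +EPA (-2.03 ± 0.18, adjusted p = 0.00512). KZS17548.1, on the same scaffold, had 96.7, 79.5 and 99.2 CPM in CRY, against 29.3, 58.9 and 29.7 CPM in GA +EPA (1.25, adjusted p = 0.0477). The count of this list moved to 9 without GA +EPA replicate 1, to 1 without GA +EPA replicate 3 and to 0 without any of the other 4 libraries, and only the lower glucose-6-phosphatase remained called with limma on FPKM, where the median was 0.21.

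**Figure D4:**
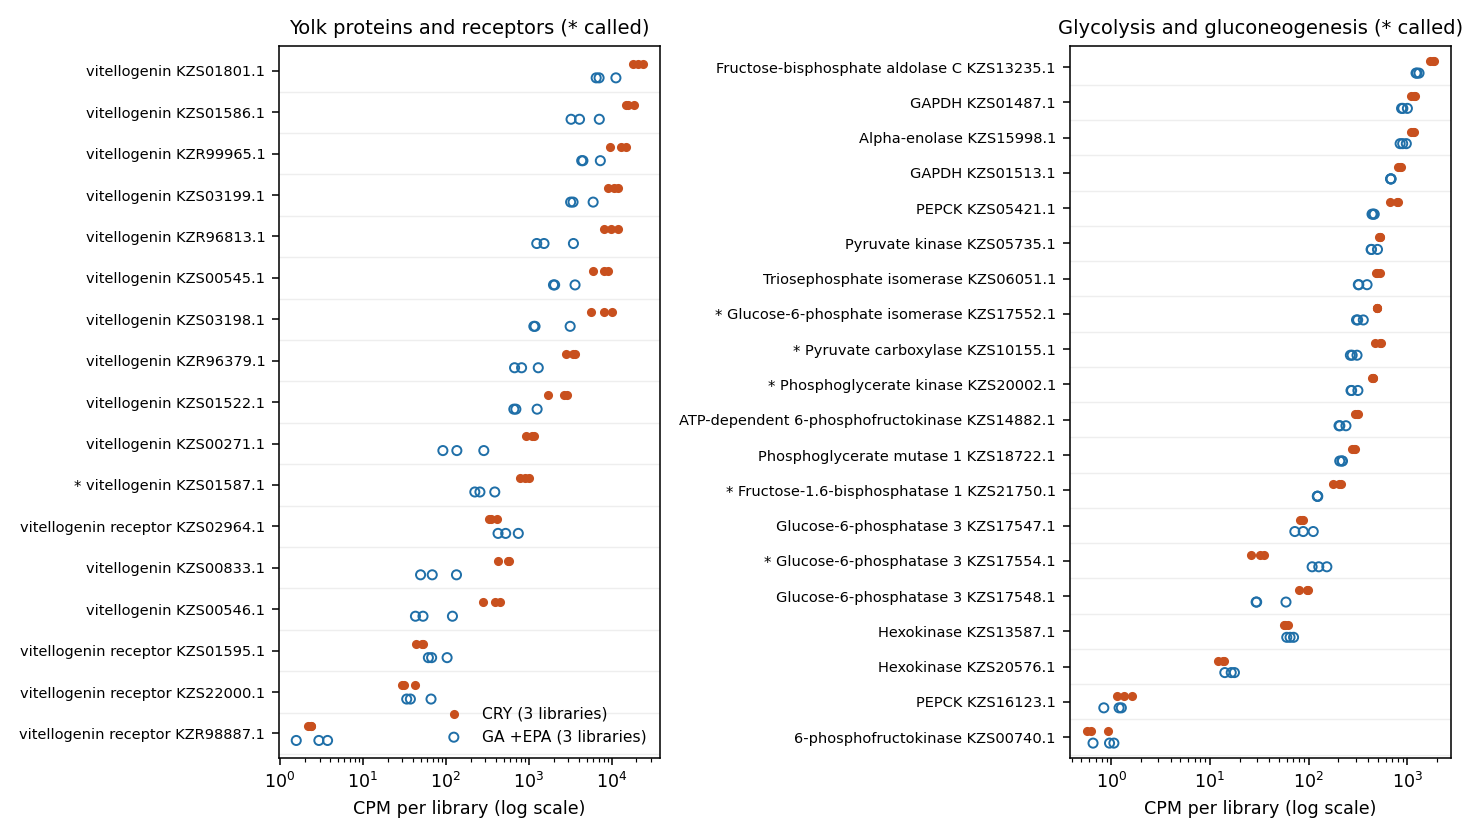
CPM in each library (horizontal log axes) of the tested yolk protein and yolk receptor genes (left panel) and of the tested genes of glycolysis and gluconeogenesis (right panel), with the 3 CRY libraries as filled orange points and the 3 GA +EPA libraries as open blue circles below them. Asterisks mark called genes. All 13 vitellogenin models have the CRY points right of the GA +EPA circles, and in each of them the GA +EPA circle nearest to CRY belongs to replicate 1.

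Genes that bind, make or activate fatty acids moved in both directions. The myelin P2 gene KZS18356.1, of the cytosolic fatty acid-binding proteins (LRGB01000512.1, 86002 to 87275, minus strand), had 1534, 1405 and 1513 CPM in CRY, against 482.3, 535.7 and 521.6 CPM in GA +EPA (1.56 ± 0.10, adjusted p = 0.00144). Its annotated neighbour, the brain-type fatty acid-binding protein KZS18357.1, was at 5.79, 5.35 and 5.90 CPM in CRY, against 6.20, 5.99 and 5.22 CPM in GA +EPA, with overlapping groups. Further along the scaffold 3 adjacent uncharacterised genes, KZS18360.1 (1.25 ± 0.14), KZS18361.1 (1.14 ± 0.11) and KZS18362.1 (0.88 ± 0.10), were higher in CRY as well.

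In the list of fatty acid synthesis, elongation, desaturation and activation, 2 of 40 tested genes were higher and 1 was lower, and the median over the list was 0.07 on the log2 scale. Stearoyl-CoA desaturase 5 (KZS07233.1), which places a double bond in saturated fatty acids, had 386.7, 398.0 and 382.3 CPM in CRY, against 219.8, 200.1 and 205.2 CPM in GA +EPA (0.93 ± 0.07, adjusted p = 0.00199). A fatty acyl-CoA reductase (KZS21332.1), of the enzymes that make fatty alcohols, was higher by 0.77 ± 0.08. The lower gene was KZS17817.1, a long-chain fatty acid CoA ligase named after *Drosophila* bubblegum, at 579.6, 557.2 and 591.2 CPM in CRY, against 1546, 1261 and 1037 CPM in GA +EPA (-1.12 ± 0.14, adjusted p = 0.00931). This list had 6 calls without GA +EPA replicate 1, 1 without GA +EPA replicate 3 and 0 without any of the other 4 libraries.

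Sterol regulatory element-binding protein 1 (KZS20049.1), a transcription factor of lipid synthesis in mammals, was at 148.6, 148.2 and 143.5 CPM in CRY, against 102.7, 103.8 and 106.1 CPM in GA +EPA (0.52 ± 0.07, adjusted p = 0.00985). Malonyl-CoA decarboxylase (KZS17400.1), which removes the building block of fatty acid synthesis, was at 15.0, 16.8 and 15.3 CPM in CRY, against 30.97, 28.77 and 34.98 CPM in GA +EPA (-0.98 ± 0.11, adjusted p = 0.00773). Its artNOG description is of the proteasome and does not match this name. A 7-dehydrocholesterol reductase gene (KZS00973.1), of the last steps of sterol synthesis in vertebrates, was the 1 call among 39 genes of fatty acid and sterol handling, with 35.3, 35.4 and 32.4 CPM in CRY, against 16.9, 15.5 and 17.0 CPM in GA +EPA (1.09 ± 0.08, adjusted p = 0.00203). The list of 39 had 2 calls higher and 3 lower without GA +EPA replicate 1, and 0 without any of the other 5 libraries. Of 24 tested genes of fatty acid oxidation 0 were called with edgeR or with DESeq2, and 2 had an unadjusted p under 0.05.

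The called genes lower in CRY included 3 enzymes of different roles. Bis(5'-adenosyl)-triphosphatase (KZS16109.1, LRGB01000763.1, 173300 to 174381, minus strand), which splits diadenosine triphosphate, had 2.68, 2.47 and 2.78 CPM in CRY, against 22.1, 23.7 and 23.5 CPM in GA +EPA, 8.55-fold lower in CRY (-3.10 ± 0.11, adjusted p = 3.29e-04). Glutathione S-transferase A4 (KZS14637.1), of the enzymes that conjugate reactive lipid aldehydes and other toxins to glutathione, showed 9.73, 16.7 and 17.7 CPM in CRY, against 88.0, 180.7 and 204.9 CPM in GA +EPA (-3.41 ± 0.40, adjusted p = 0.00869). A peptide methionine sulfoxide reductase (KZS18771.1), which repairs oxidised methionine, was at 21.9, 21.6 and 19.4 CPM in CRY, against 50.4, 48.8 and 59.5 CPM in GA +EPA (-1.31 ± 0.11, adjusted p = 0.00402). Its artNOG description is cyclin b and does not match this name. These 3 genes, like all 224 called ones, had no overlap between the groups.

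A pair of sestrin genes, of a family induced by stress and starvation in other animals, were lower in CRY than in GA +EPA: KZS01477.1 (-0.88 ± 0.10) and KZS11975.1 (-1.04 ± 0.13). In CRY against GA neither was called (0.11 ± 0.08 and -0.12 ± 0.12, edgeR adjusted p = 0.367 and 0.471). KZS01477.1 was at 29.75 to 32.57 CPM in CRY, 26.23 to 31.07 CPM in GA and 30.69 to 35.97 CPM in CY +EPA, against 51.13 to 66.9 CPM in GA +EPA. A gene named UDP-glucuronosyltransferase (KZS05562.1) was higher in CRY, and its artNOG description is a ZIP zinc transporter. It had 45.4, 51.3 and 45.1 CPM in CRY, against 11.2, 9.40 and 7.76 CPM in GA +EPA (2.35 ± 0.13, adjusted p = 0.00141). By product name the 41 tested conjugating enzymes thus held 1 call in each direction. There were 4 calls higher and 6 lower in this list without GA +EPA replicate 1, while without CRY replicate 2 or GA +EPA replicate 3 it had 1, and without any of the other 3 libraries 0. Cytochrome P450 genes gave 0 calls of 27 with edgeR (6 at an unadjusted p under 0.05, 1 called by DESeq2), ABC transporters 0 of 33 (11 and 5) and antioxidant and iron storage genes 0 of 31 (10 and 2). Among all 14303 tested genes, 4362 reached an unadjusted p of at most 0.05. When GA +EPA replicate 1 was left out, edgeR called 4 cytochrome P450 genes, all lower in CRY, 7 ABC transporters, of which 6 were lower, and 1 antioxidant gene, which was lower, while without any of the other 5 libraries it called 0 in these lists. Haem peroxidases gave 0 of 21 by product name (9 and 3), and 2 of 23 by artNOG description in a list made after the values were seen, KZS16377.1 (3.02 ± 0.33) and KZS15908.1 (1.10 ± 0.09), both higher in CRY.

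The called genes with the lowest log2 fold changes were uncharacterised, and some varied widely between GA +EPA libraries. KZS11783.1 had 1.04, 1.05 and 1.19 CPM in CRY, against 181.7, 124.6 and 24.9 CPM in GA +EPA (-6.61 ± 0.82, adjusted p = 0.00946). KZS10999.1 had 5.68, 3.94 and 8.63 CPM in CRY, against 326.3, 193.9 and 71.6 CPM in GA +EPA (-4.98 ± 0.63, adjusted p = 0.00953). KZS15812.1 was steadier, with 7.70, 5.67 and 9.54 CPM in CRY, against 93.0, 139.9 and 155.3 CPM in GA +EPA (-4.06 ± 0.29, adjusted p = 0.002). At the other end, KZS18831.1, with an artNOG description of haemolymph juvenile hormone-binding protein, had 32.4, 26.2 and 33.2 CPM in CRY, against 0.0481, 0.140 and 0.406 CPM in GA +EPA (7.28 ± 0.43, adjusted p = 0.00143). KZS18144.1 was at 3.39, 1.99 and 2.67 CPM in CRY and had no count in any GA +EPA library, at least 18.4-fold higher against a floor of 3 counts per library.

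A few further lists held 1 or 2 calls each. Nidogen-2 (KZS19650.1), a basement membrane protein, had 93.8, 95.4 and 88.6 CPM in CRY, against 150.3, 161.2 and 155.7 CPM in GA +EPA (-0.72 ± 0.08, adjusted p = 0.00773). The collagen gene KZS07034.1 was lower by a similar amount (-0.61 ± 0.08), and these were the 2 calls among 22 genes of the extracellular matrix. DNA polymerase delta (KZS16289.1), a replicative polymerase, was the 1 call among 75 genes of DNA replication and cell division, at 57.7, 45.9 and 57.2 CPM in CRY, against 112.8, 123.8 and 115.7 CPM in GA +EPA (-1.10 ± 0.12, adjusted p = 0.00773). A nuclear receptor of subfamily 6 (KZS04954.1) was the 1 call among 18 moult and juvenile hormone genes (-1.23 ± 0.14). Of the core and linker histone genes 2 of 19 were called, both higher in CRY: H3.2 (KZS11332.1, 2.44 ± 0.19) and H1.0 (KZS10847.1, 0.78 ± 0.10). The calls without GA +EPA replicate 1 numbered 4 in the matrix list (all lower), 4 in the replication list (1 higher and 3 lower) and 4 in the histone list (all higher). Without any of the other 5 libraries there were 0 calls in these lists, apart from 1 histone without CRY replicate 2.

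Large gene groups showed no call at this threshold. Their counts at an unadjusted p under 0.05 stand beside 4362 of all 14303 tested genes. Of 61 cuticle protein genes 0 were called, their log2 fold changes ran over -6.16 to 4.29 around a median of -0.54, and 21 reached an unadjusted p under 0.05, 5 upward and 16 downward. Cuticle genes are read strongly only at some stages of the moult, and stage within the moult cycle was not recorded in the labels. Cytosolic ribosomal proteins (71 tested) had 0 calls, a median of 0.18 and 25 genes at an unadjusted p under 0.05, all higher in CRY. The respiratory chain with ATP synthase (61 tested) had 0 calls, a median of 0.17 and 26 such genes, 25 higher and 1 lower. Positive log2 fold changes were found in 69 of the 71 and 58 of the 61, against 51.3% of all tested genes. These medians turned to -0.03 and -0.04 with limma on log2(FPKM + 1), where all genes had a median of -0.136. Muscle genes (25 tested, median -0.17), chaperones (60, median 0.02), neurotransmitter and neuropeptide receptors (41, median -0.29) and lectins (43, median -0.01) gave 0 calls as well. An unadjusted p under 0.05 was reached by 9 muscle genes (2 higher and 7 lower) and 23 chaperones (11 and 12). It was also reached by 11 receptors (2 higher and 9 lower) and 15 lectins (9 and 6). DESeq2 called 8 cuticle, 0 ribosomal, 2 respiratory chain, 1 muscle, 3 chaperone, 3 receptor and 10 lectin genes. With edgeR, 3 cuticle, 2 chaperone and 4 lectin genes were called without GA +EPA replicate 1 and 1 cuticle gene without GA +EPA replicate 3.

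By artNOG category, lipid transport and metabolism (I) had 15 of 375 tested genes called (4%), 10 higher and 5 lower in CRY, beside 1.57% of all genes. Cell wall and membrane biogenesis (M) had 4 of 101 (3.96%), 2 in each direction. Amino acid transport and metabolism (E), which holds the called genes named as trypsins, had 15 of 420 (3.57%), of which 14 were higher. Signal transduction (T), which holds the opsins, had 20 of 1307 (1.53%), close to the share among all genes, and 15 of the 20 were lower. Energy production (C) had 0 of 230 with edgeR and translation (J) had 1 of 375. In C, 72 genes had an unadjusted p under 0.05, of which 54 were higher, beside 4362 of all 14303 tested genes. Genes with an uncharacterised product name made up 58 of the 139 called genes higher in CRY and 41 of the 85 lower, or 1.76% of the 5618 tested.

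Called genes lay side by side on a scaffold in 10 runs of 2 or 3 genes of the same direction, 23 genes in all, of which 7 runs were higher and 3 lower in CRY. No number for randomly placed genes was computed to set beside this, so the runs are a description. Besides the esterase, opsin, globin and protease neighbours above, they included a pair of venom allergen genes (KZS11284.1 and KZS11285.1), higher in CRY, and a pair of uncharacterised genes with an E1-E2 ATPase description (KZS09807.1 and KZS09808.1), lower by 1.19 ± 0.14 and 1.18 ± 0.13 on the log2 scale. Neighbouring members of 1 family can share reads, and 5 genes of these runs did so in all 6 libraries: KZS08919.1, KZS10166.1, KZS11285.1, KZS12429.1 and KZS18360.1.

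The other 9 libraries place the levels of the 2 diets among all 15 libraries. Since the called genes were chosen for a difference between CRY and GA +EPA, these counts are a description, set beside all tested genes whose CRY and GA +EPA libraries did not overlap in the same direction. Among the 139 genes called higher in CRY, the 3 CRY libraries were above all 12 others for 28 (20.1%, against 12.4% of 2575 non-overlapping genes) and the 3 GA +EPA libraries below all 12 others for 16 (11.5%, against 5.83%). Among the 85 genes called lower, CRY was below all 12 others for 32 (37.6%, against 15.9% of 2679) and GA +EPA above all others for 14 (16.5%, against 4.63%). The library labelled CY replicate 1 was left out after it was seen to resemble CRY, which can only raise these numbers. CRY was then above all 11 others for 95 of 139 genes (68.3%, against 29.3% of the 2575 non-overlapping genes). It was below all 11 others for 54 of 85 (63.5%, against 25% of 2679). The GA +EPA counts stayed at 16 and 14 (11.5% and 16.5%, against 6.06% and 4.93%). CY replicate 1 lay nearer to the mean of CRY than to the mean of CY replicates 2 and 3 for 194 of the 224 called genes (86.6%, against 61% of all tested genes). For the globin gene KZS07514.1 it had 131.8 CPM, beside 3.18 and 5.31 CPM in CY replicates 2 and 3, 7.55 to 8.22 CPM in CY +EPA and 0.604 to 1.31 CPM in GA.

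Genes differed in the diet they set apart, as the plot of 6 genes in all 15 libraries shows. The globins KZS07513.1 and KZS07514.1 and KZS18831.1 were high in CRY alone, apart from CY replicate 1, and were also higher in CRY than in CY +EPA (log2 fold changes 3.81 ± 0.21, 4.10 ± 0.14 and 4.20 ± 0.19) and in GA (5.85 ± 0.15, 7.22 ± 0.23 and 7.48 ± 0.20). This did not hold for the globins as a whole. The 15 globin genes summed to 16050 to 18650 CPM in CRY and 18670 to 21590 CPM in CY +EPA. Their sums were 16160 to 17830 CPM in CY and 6913 to 7637 CPM in GA. The most abundant globin gene, KZS12429.1, was not called in CRY against CY +EPA (0.05 ± 0.11, edgeR adjusted p = 0.789). The esterase KZS04989.1 was low in GA +EPA and in GA (0.297 to 0.656 CPM) and intermediate in CY +EPA (4.36 to 17.2 CPM) and CY (13.9 to 28.7 CPM). In CY +EPA it missed the threshold against CRY (2.28 ± 0.47, adjusted p = 0.0413). Glutathione S-transferase A4 and bis(5'-adenosyl)-triphosphatase were high on both green alga diets and low on the other 3: against CY +EPA their log2 fold changes in CRY were 0.72 ± 0.24 (adjusted p = 0.12) and 0.31 ± 0.26 (adjusted p = 0.461), and against GA -3.25 ± 0.33 and -2.70 ± 0.25. The opsin KZS10165.1 was lowest in CRY, with 6.15 to 8.18 CPM in CY +EPA and 30.6 to 34.6 CPM in GA, so that GA +EPA and GA differed in level.

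Vitellogenin set GA and GA +EPA below the other diets. The summed level of the 13 models was 78550 to 109900 CPM in CRY, 75820 to 95980 CPM in CY +EPA and 8495 to 14040 CPM in GA. For KZS01587.1 the log2 fold change in CRY was 0.23 ± 0.12 against CY +EPA (adjusted p = 0.251) and 2.83 ± 0.19 against GA (adjusted p = 3.14e-05). The same fit as above called 23 of 14172 genes (0.162%) in CRY against CY +EPA, 17 higher and 6 lower (0.12% and 0.0423% of the genes tested, 2 and 18 genes with all 15 libraries in one fit), and 2319 of 14303 (16.2%) in CRY against GA, 947 higher and 1372 lower (6.62% and 9.59%, 477 and 2196 genes with limma on log2(FPKM + 1)). All 3 comparisons share the CRY libraries, and the difference between their counts was not tested. Without CY +EPA replicate 2 the count against CY +EPA was 140. It was 0, 1, 3 and 5 without CY +EPA replicate 1, CRY replicate 1, CY +EPA replicate 3 and CRY replicate 2, and 23 without CRY replicate 3. The count against GA was 1440 without CRY replicate 1 and 1401, 1450 and 1369 without GA replicate 1, 2 and 3.

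**Figure D5:**
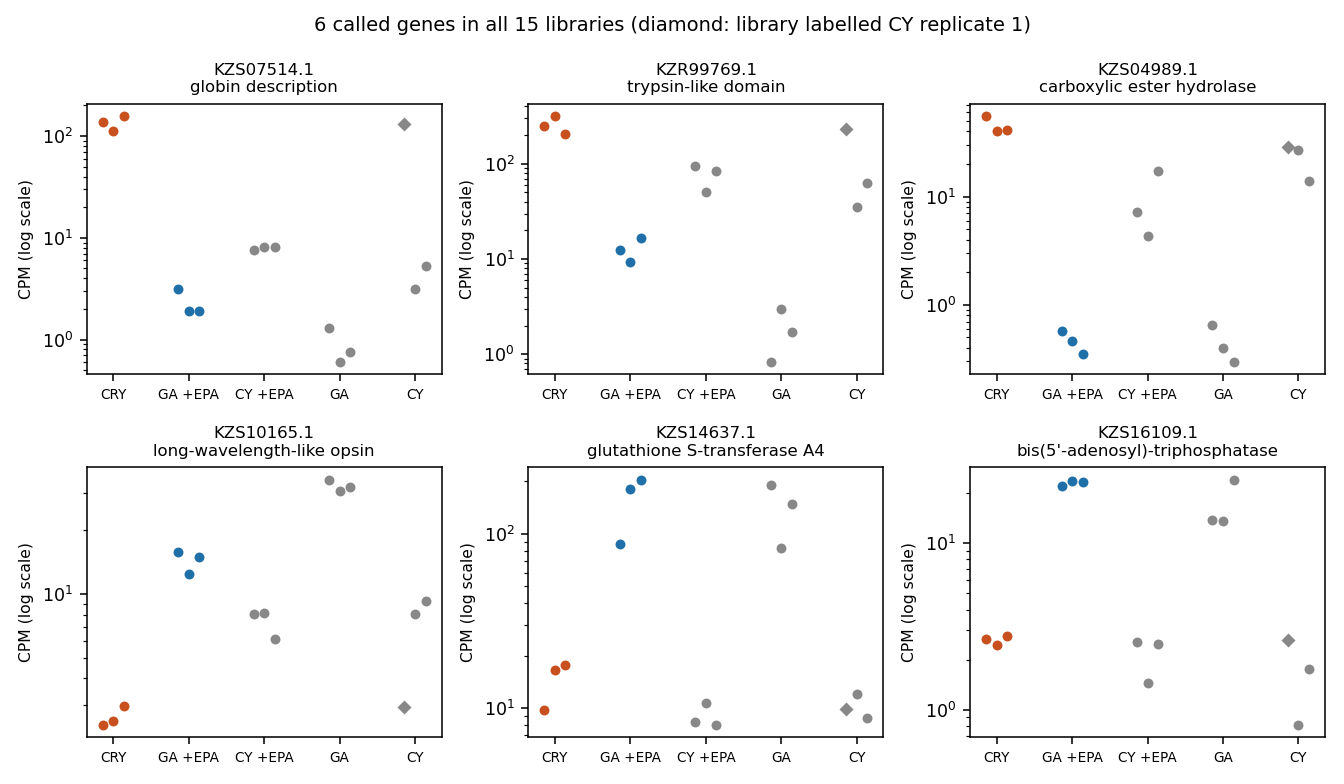
CPM (vertical log axes) of 6 called genes in all 15 libraries, with CRY in orange, GA +EPA in blue and CY +EPA, GA and CY in grey, 3 points per group and a diamond for the library labelled CY replicate 1. In the top row CRY lies above GA +EPA, in the bottom row GA +EPA lies above CRY, and the diamond lies nearer to the CRY points than to those of GA +EPA.

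Genes that are named in the study had values in this comparison too. The carboxylic ester hydrolase KZS07853.1 and the gene KZS15908.1, with a haem peroxidase description (290.9, 309.3 and 322.0 CPM in CRY, against 137.1, 150.4 and 150.2 CPM in GA +EPA, adjusted p = 0.00349), were called higher in CRY. The aromatic-L-amino-acid decarboxylase KZS20105.1 (0.56 ± 0.21, adjusted p = 0.132) and the endo-beta-1,4-mannanase KZS21774.1 (0.19 ± 0.27, adjusted p = 0.687) were not called. The named genes with a vitellogenin description, KZS21011.1, KZS21012.1 and KZS06496.1, had log2 fold changes of -0.66 ± 0.14, -0.55 ± 0.11 and -0.57 ± 0.11 with adjusted p of 0.0349, 0.0319 and 0.0297, opposite in sign to the 13 models above, and shared reads in all 6 libraries. The juvenile hormone-inducible protein gene KZS09289.1 was at 8.96, 9.86 and 10.1 CPM in CRY, against 12.7, 11.8 and 10.1 CPM in GA +EPA (-0.23 ± 0.12, adjusted p = 0.242). By product name, GAPDH and succinate dehydrogenase, which serve as reference genes in expression work, had log2 fold changes of 0.33 and 0.34 in the 2 tested GAPDH genes and of -0.23 to 0.29 in the 4 tested succinate dehydrogenase genes, none of which was called. Of these 6 genes, 5 reached an unadjusted edgeR p under 0.05 (4 higher and 1 lower in CRY), beside 4362 of all 14303 tested genes. An adjusted p of at most 0.05 was reached by 3, all higher in CRY. DESeq2 called 1 of the 6. This list was made from product names and is not the set of loci that the study lists.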

How the data were processed

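RNA of whole animals was sequenced in 15 libraries, 3 per diet. Per the labels and the study's methods, the authors used Trimmomatic for trimming, bowtie2 for mapping (*D. magna* genome v2.4) and RSEM 1.2.31 for quantification, which gives estimated (expected) counts, FPKM and TPM values per gene. The deposited expected counts are not whole where reads were split between similar genes (3164 of the tested genes, 51 of the called ones). The deposited FPKM values served only as an alternative unit, and the deposited TPM values were not used. Product names, artNOG categories and scaffold positions came from the deposited annotation, which holds 26645 of the 26646 genes. RefSeq names were matched to 0 of them, and no sequences are shown. For genes with a product name, functions in the text follow that name, with the word putative left out. The artNOG description of the same gene can differ.

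After rounding, these counts were tested with edgeR 4.0.16 (R 4.3.3; filterByExpr, TMM normalization, glmQLFit and glmQLFTest, no covariates) on the 6 compared libraries, with Benjamini-Hochberg adjustment over all tested genes and calls at an adjusted p of 0.01. The study states a threshold of 0.01 for p in its own tests. It plots adjusted p-values for its significant genes, and its methods do not say how these were adjusted. Its ANOVA used normalized FPKM values, so these calls do not follow its rule. Values printed with ± are log2 fold changes with their standard errors. CPM used TMM factors over all 15 libraries. The scripts were tested on simulated data. Alternatives were RLE size factors, DESeq2 1.42.0, limma 3.58.1 on log2(FPKM + 0.1) and log2(FPKM + 1), other count filters (none, or at least 10 counts in every library), a joint fit of the 15 libraries, a block for replicate number, a threshold of 0.05 and leaving out each library.

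Named genes were called, not overlapping and at a mean of at least 1 CPM: the 5 highest and 5 lowest log2 fold changes of any gene, the 10 highest and 10 lowest among genes with a product name, the 5 smallest p and, in each list, up to 3 per direction with the smallest p. Genes named in the study were added. Further genes, among them uncalled members of a family under discussion, were named after their values were seen. The comparison and the lists were chosen with earlier results of these data known. Intervals and floors cover counting error only.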

Additional observations from a re-analysis of the deposited data

How the results depend on the processing

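The number of genes called in CRY against GA +EPA was 224, 186 with RLE size factors, 322 without a filter, 229 with at least 10 counts in every library and 157 with limma on log2(FPKM + 1). It moved to 1392 with DESeq2, 503 with all 15 libraries in one fit, 144 with limma on log2(FPKM + 0.1) and 1567 at an adjusted p of 0.05, and ranged from 6 to 833 when 1 library was left out. Under limma on FPKM the median of all genes was -0.165 or -0.136, and 39.6% or 41.4% of calls were higher in CRY. Against CY +EPA the count of 23 moved to 799 with DESeq2, 133 without a filter, 9 with limma on log2(FPKM + 0.1) and 807 at 0.05, and ranged from 0 to 140 with 1 library left out. Against GA the count of 2319 moved to 851 with all 15 libraries and 4314 at 0.05, and ranged from 1369 to 2488. Within the gene lists made from product names, 35 calls moved to 170 with DESeq2, 75 with all 15 libraries and 176 at 0.05, ranging from 0 to 149. Within the artNOG categories, 117 calls moved to 711 with DESeq2, 292 with all 15 libraries, 71 and 74 with limma on log2(FPKM + 0.1) and log2(FPKM + 1) and 827 at 0.05, ranging from 2 to 433. Of 106 named genes tested, 93 were called, and 6 to 94 were with 1 library left out. The 93 genes had the same direction under every alternative in which they were tested. Their groups do not overlap, so a change of direction was hardly possible and this is no added evidence. Where a count moved, the cause was not tested.

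The replicate number did not pair the samples, since the deviations of same-numbered CRY and GA +EPA libraries correlated at -0.037, -0.25 and 0.049. With the number as a block, 2 genes were called in CRY against GA +EPA, 0 within the lists, 0 within the categories and 2 of the named genes. The block gave 2 calls against CY +EPA and 2165 against GA.

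With 3 libraries per group and 18218136 to 20060094 counts per library, a gene that was not called is not shown to be unchanged.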

Other observations

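A carbonic anhydrase and a bicarbonate transporter, set side by side after their values were seen, were lower in CRY animals. The carbonic anhydrase KZS12234.1, of the enzymes that convert carbon dioxide to bicarbonate, had 7.814, 6.40 and 11.01 CPM in CRY, against 39.7, 38.8 and 29.9 CPM in GA +EPA (log2 fold change -2.07 ± 0.22, edgeR adjusted p = 0.00773). An electrogenic sodium bicarbonate cotransporter (KZS18555.1) had 4.81, 3.94 and 3.86 CPM in CRY, against 9.62, 9.26 and 9.94 CPM in GA +EPA (-1.16 ± 0.14, adjusted p = 0.00869), the 1 call among 121 tested solute transporters. The groups did not overlap for either gene, as for all 224 called genes. The list of transporters had 3 calls higher and 9 lower without GA +EPA replicate 1, and 0 without any of the other 5 libraries. In artNOG category P (inorganic ion transport and metabolism) 9 of 312 tested genes were called (2.88%), 4 higher and 5 lower in CRY. The higher ones included KZS05562.1, whose product name is UDP-glucuronosyltransferase.

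Higher in CRY were a pair of major facilitator superfamily transporters that lie close to each other, KZS06987.1 (1.45 ± 0.10) and KZS06984.1 (1.06 ± 0.12). Tetraspanin KZS10858.1, of a family of membrane proteins, had 29.3, 32.6 and 29.1 CPM in CRY, against 1.49, 3.23 and 3.50 CPM in GA +EPA (3.49 ± 0.31, adjusted p = 0.00512). An uncharacterised gene with an insect cuticle protein description, KZS21347.1, was among the most abundant called genes, at 4208, 3381 and 3748 CPM in CRY, against 1567, 1623 and 1977 CPM in GA +EPA (1.16 ± 0.15, adjusted p = 0.00946). It was the 1 call among 33 tested genes with this description, of which 4 were called without GA +EPA replicate 1 (2 in each direction), 2 without GA +EPA replicate 3 (both lower) and 0 without any of the other 4 libraries.

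GA +EPA replicate 3 had a mean r of 0.9904 to the 3 GA libraries and of 0.9795 to the other 2 libraries of its own group (log2 CPM across genes, which are not independent replicates).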
